A study of Homo sapiens with 9 samples.

Results

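The pro-survival branch of the BCL2 family was followed in MDA-MB-231 cells through 5 genes: MCL1, BCL2, BCL2L1, BCL2A1 and BCL2L10. A gene entered through probe sets listed with exactly 1 symbol, and each of the 5 had 1 such probe set, among 23558 probe sets of 22109 genes. BCL2L2 is not analysed here because its probe set carries several symbols. MDA-MB-231 cells, a human breast cancer line, were first grown from a pleural effusion. YM-155 (sepantronium bromide) is known for lowering survivin, which BIRC5 encodes. Total RNA was hybridised to whole-transcript arrays, 3 for each of 3 groups. YM-155 was dissolved in DMSO; controls had no treatment, and no vehicle or time is given for them. Cells of the 8 h group received increments of YM-155 that totalled 83 ng/ml and were collected while still attached and without visible death. Cells of the 20 h group received 14.6 ng/ml, given as the LC50. Dose and time differ together between the treated groups, so their parts in any difference cannot be told apart. The labels do not say whether replicates came from separate cultures, so every p measures the spread between these arrays, which may be technical.

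Proteins of the BCL2 family decide whether the outer mitochondrial membrane is opened. The effectors BAX and BAK1 form the pores, the pro-survival proteins hold them and the BH3-only activators in check, and BH3-only proteins occupy the groove of the pro-survival proteins. Pro-survival members differ in which BH3-only partners they bind, in tissue and in stability, and MCL1 is a short-lived protein. YM-155 has been reported to lower MCL1 protein in other cells. Protein was not measured here, and a probe set sums the splice forms of its gene, so long and short forms of MCL1 or BCL2L1 are not separated.

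The deposited values are RMA summaries on the log2 scale, in which a difference of 1 is a doubling. Among controls, replicate 3 was the most distant: its differences from them had SDs of 0.312 and 0.313 over 11055 genes at or above the median level (3.89), against 0.187 between controls 1 and 2. The closest arrays were 8 h replicates 1 and 2, with an SD of 0.147. Arrays of a group often shared a value exactly, as deposited: 737 to 1625 of the 22109 genes had the same value on both arrays of a pair, the most on those 8 h replicates. All 3 values were identical for 281 genes in controls, 362 at 8 h and 204 at 20 h, and for none of the 5 members in any group. Such ties make the spread of those genes too small, enter the variance that limma shares between genes, and their cause was not tested. BIRC5 fell by 0.47 at 8 h and by 1.24 at 20 h (limma adjusted p = 0.0311 and 2.75e-05). Of 10 markers of mesenchymal breast lines, 9 lay at or above the median level, among them FN1 (mean 10.8) and AXL (10.4), with SPARC below it (3.28). Of 9 luminal markers measured, 6 did, among them KRT19 (mean 7.78) and EPCAM (6.08). ESR1, PGR and FOXA1 lay below the median level (2.96, 2.01 and 2.45). Of 7 reference genes measured, 0 rose and 1 fell at 8 h in limma, against 5.93% and 6.28% of all genes. The gene that fell at 8 h was ACTB (-0.58, limma adjusted p = 0.0227). At 20 h 0 rose and 3 fell, against 13.1% and 17.2% of all genes. At an unadjusted p under 0.05 in limma the counts were 0 and 2 at 8 h and 0 and 5 at 20 h. The 3 that fell at 20 h were HPRT1, PPIA and GUSB, with changes of -0.99, -0.64 and -0.29. The shares of all genes given here and below include dim genes. In a fit of only the 11055 genes at or above the median level, 1427 rose and 1603 fell at 8 h. At 20 h 2457 of them rose and 3694 fell. These are larger shares than over all genes, so lists of brighter genes are set against a low background.

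MCL1 rose after both treatments. Its probe set 16692775 read 8.97, 8.97 and 8.98 (log2) in control replicates 1 to 3. The 8 h arrays read 9.74, 9.79 and 9.64, and the 20 h arrays 9.55, 9.54 and 9.48. Every treated array lay above every control, and every 20 h array lay below every 8 h array. The level was 8.97 ± 0.0050 in controls, 9.73 ± 0.077 at 8 h and 9.52 ± 0.037 at 20 h (SD, n = 3). The rise at 8 h was 0.75 (SE 0.07, 95% interval 0.59 to 0.91, limma adjusted p = 0.000153), or 1.68-fold. At 20 h it was 0.54 (SE 0.07, interval 0.38 to 0.71, limma adjusted p = 0.000248), or 1.46-fold. Of the 22109 genes, 445 rose further than MCL1 at 8 h and 1697 at 20 h. Genes called higher at both times made up 4.19% of all genes. The control spread of MCL1 was small beside its treated spread, and limma moderates it towards that of other genes.

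Between the treated groups MCL1 was lower at 20 h by a log2 difference of -0.21 (SE 0.07, interval -0.37 to -0.04), which did not pass (limma adjusted p = 0.0706). That difference sits near the threshold. It passed in 5 of 20 alternative settings: genes above the median level only (adjusted p = 0.0458), repeated quantile normalization (0.0210), centred arrays (0.0456), array weights (0.0315) and a trended variance (0.0256). The order of MCL1 levels was thus control, 20 h, 8 h, with the upper neighbours not separated in the main test.

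**Figure D1:**
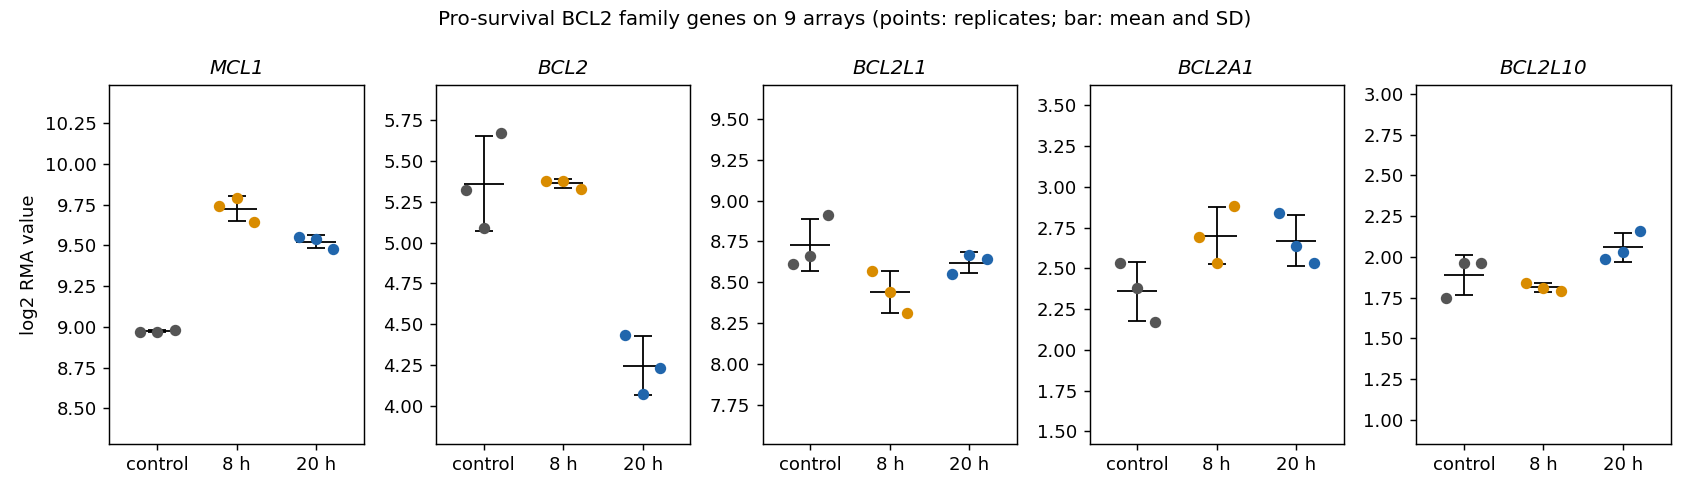
Log2 RMA values of the 5 pro-survival genes on 9 arrays (y axes, each spanning the same log2 width) in the control, 8 h and 20 h groups (x axes); points are replicates 1 to 3 from left to right, and bars give the mean and SD. MCL1 lies higher in all treated arrays (9.48 to 9.79, against 8.97 to 8.98), and BCL2 lies lower in the 20 h arrays (4.07 to 4.43).

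BCL2, the founding member, which guards the mitochondrial and endoplasmic reticulum membranes, fell at 20 h. Probe set 16855673 read 5.32, 5.09 and 5.67 in controls 1 to 3 and 5.38, 5.38 and 5.33 at 8 h. The 20 h arrays read 4.43, 4.07 and 4.23. All 20 h arrays lay below all others, while the 8 h arrays lay within the range of the controls. The level was 5.36 ± 0.30 in controls, 5.37 ± 0.028 at 8 h and 4.24 ± 0.18 at 20 h (SD, n = 3). From control to 20 h it fell by 1.12 (SE 0.14, interval -1.44 to -0.80, limma adjusted p = 0.000187), and controls were 2.17-fold higher. From 8 h to 20 h it fell by 1.12 (SE 0.14, interval -1.44 to -0.80, limma adjusted p = 0.000388). At 8 h the log2 difference from control was 0.0048 (SE 0.14, limma adjusted p = 0.992), with an interval of -0.32 to 0.32, which leaves room for a change of that size in either direction. Genes that fell further than BCL2 numbered 659 between control and 20 h and 287 between 8 h and 20 h.

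Control replicate 3 carried the highest BCL2 value, 0.47 above the mean of the other controls. Without it BCL2 at 20 h differed from control by -0.96 (limma adjusted p = 0.000286). A gene called lower at 20 h and not called at 8 h was common in these arrays: 11.9% of all genes had that pattern.

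The stretch before the BCL2 start is shown because BCL2 was the member with the largest change; binding of factors was not measured. Windows of 250 bases before the RefSeq start (GRCh38.p14) were matched by symbol for 3 of the 5 members, BCL2, BCL2L1 and BCL2A1. The BCL2 window is chr18:63319770-63320019 on the minus strand, 5′ to 3′, with motif matches in capitals.
BCL2: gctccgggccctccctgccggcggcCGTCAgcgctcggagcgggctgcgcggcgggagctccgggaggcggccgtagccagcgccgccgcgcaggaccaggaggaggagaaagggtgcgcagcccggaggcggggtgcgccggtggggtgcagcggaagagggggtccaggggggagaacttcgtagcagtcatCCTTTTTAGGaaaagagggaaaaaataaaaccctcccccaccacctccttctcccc
The first capitals are a match on the other strand to TGACG, the core of the cyclic AMP response element, which 21.2% of 35116 such windows hold. The second are a CArG box, the element of serum response factor, found in 1.16% of them and beginning at position -56 from the start. GC content was 70.0%, against a median of 58.0%. There was no match on either strand to the full element TGACGTCA (1.65% of windows), which holds that core, nor to the GC box GGGCGG (42.6%) or the ETS motif CCGGAAG (8.52%). Nor did the window hold the E2F motif TTTCCCGC (1.39%), the STAT motif TTCNNNGAA (6.57%), the AP-1 motif TGANTCA (6.57%) or the NF-kB motif (9.96%). TATAAA (10.7%) and the sequence CCAAT (32.0%) had no match either. These are matches of letters only.

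BCL2L1, which encodes BCL-XL, showed no change that passed. Its probe set 16918244 read 8.61, 8.66 and 8.91 in controls, 8.57, 8.44 and 8.31 at 8 h and 8.55, 8.67 and 8.64 at 20 h. Every 8 h array lay just below every control, and the 20 h arrays overlapped both groups. The log2 difference from control was -0.29 at 8 h (SE 0.10, interval -0.52 to -0.06, limma adjusted p = 0.110) and -0.10 at 20 h (SE 0.10, interval -0.33 to 0.12, limma adjusted p = 0.502). Control replicate 3 was again the highest, by 0.27 over the mean of the others, and without it the 8 h difference was -0.20 (limma adjusted p = 0.251). From 8 h to 20 h the difference was 0.18 (interval -0.05 to 0.41, limma adjusted p = 0.251). The order of means was 8 h, 20 h, control, with no neighbours separated.

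BCL2A1, a pro-survival member typical of blood cells and a known NF-kB target, lay in the dim part of the arrays. Its mean over 9 arrays was 2.58, below the median of all genes, and 73.4% of 354 olfactory receptor genes, whose products serve smell in nasal neurons, had lower means. Probe set 16812344 read 2.53, 2.38 and 2.17 in controls, 2.69, 2.53 and 2.88 at 8 h and 2.84, 2.64 and 2.53 at 20 h. The groups met at 2.53. Log2 differences from control were 0.34 at 8 h (interval 0.06 to 0.62, limma adjusted p = 0.127) and 0.31 at 20 h (interval 0.03 to 0.59, limma adjusted p = 0.0971), and the treated groups differed by -0.03 (limma adjusted p = 0.902). Of 9 leukocyte markers measured, 0 reached the median level (PTPRC, which encodes CD45, had a mean of 1.78), yet their summed log2 values were 24.2 to 25.1 in controls, 25.19 to 25.69 at 8 h and 26.38 to 27.96 at 20 h. At 20 h 4 of these 9, CD14, CD79A, CD3D and SPI1, rose in limma, against 13.1% of all genes. None fell (0 also at an unadjusted p under 0.05), against 17.2% of all genes. The part of these markers in the BCL2A1 values was not tested.

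BCL2L10, whose product BCL-B is best known in germ and plasma cells, was the dimmest member. Its mean was 1.92, and 33.9% of the olfactory receptor genes had lower means. Probe set 16809369 read 1.75, 1.96 and 1.96 in controls, 1.84, 1.81 and 1.79 at 8 h and 1.99, 2.03 and 2.16 at 20 h. The 20 h arrays lay above the rest by a small margin. Log2 differences were -0.08 at 8 h and 0.17 at 20 h against control (limma adjusted p = 0.676 and 0.176) and 0.25 from 8 h to 20 h (interval 0.05 to 0.44, limma adjusted p = 0.0674). At levels this near those of genes not in use, a change in BCL2L10 or BCL2A1 could be compressed on the array.

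Counted together at 8 h, 1 of the 5 members rose, MCL1, and 0 fell, against 5.93% and 6.28% of all genes (12.2% in either direction). At an unadjusted p under 0.05 in limma, 2 were higher and 1 lower. At 20 h 1 rose and 1 fell, against 13.1% and 17.2% of all genes (30.3% in all). From 8 h to 20 h 0 rose (1 at an unadjusted p under 0.05) and 1 fell, BCL2, against 8.95% and 13.6% (22.6% in all). Arrays of the groups compared did not overlap for 2, 3 and 3 members in these comparisons, where 27.4%, 40.6% and 38.3% of all genes had such a split. With 5 members, counts of 0 to 3 are too small to set the group apart from that background. The median log2 change of the members was 0.0048 at 8 h and 0.17 at 20 h, against -0.0031 and 0.028 over all genes. With 5 members each median is the value of a single gene, BCL2 at 8 h and the dim BCL2L10 at 20 h, and neither passed there. Both comparisons use the same controls.

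**Figure D2:**
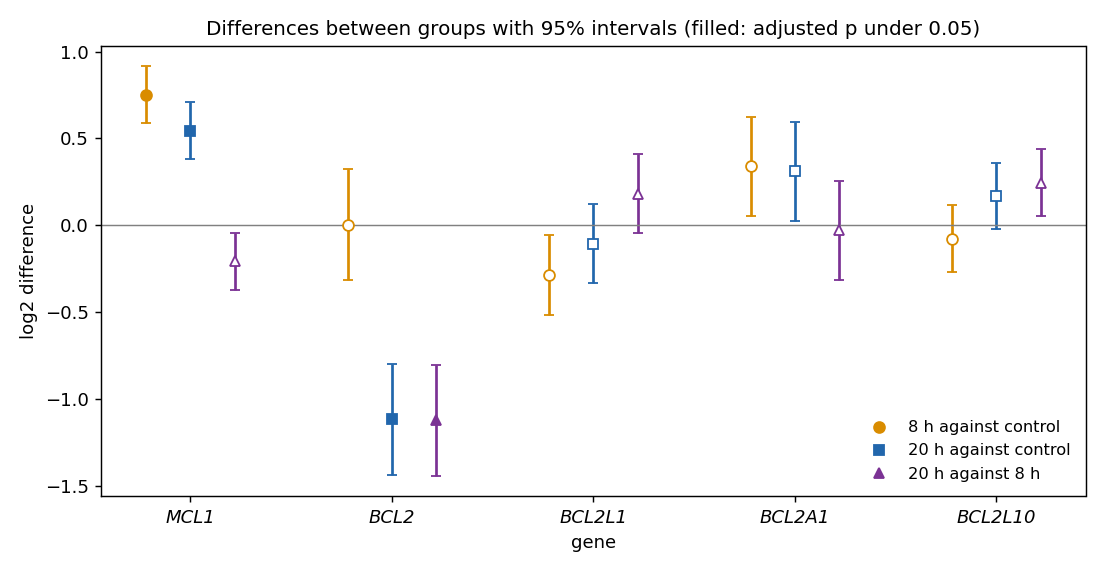
Log2 differences (y axis) of the 5 pro-survival genes (x axis) in the 3 comparisons between groups, with 95% intervals from limma; filled symbols have an adjusted p under 0.05. MCL1 is filled in both comparisons with control (0.75 and 0.54), and BCL2 is filled in both that involve 20 h (-1.12 each).

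Unequal change of MCL1 and other family genes was examined through the difference of 2 log2 values on the same array, in 12 exact permutation tests whose smallest possible p is 0.1. MCL1 shifted against BCL2 by 0.75 at 8 h and 1.66 at 20 h from control, and by 0.91 from 8 h to 20 h. Against BCL2L1 it shifted by 1.04 at 8 h and 0.65 at 20 h, and by -0.39 between the treated groups. In each of these the arrays of the groups did not overlap (two-sided exact p = 0.1, adjusted 0.109). The messenger RNA of MCL1 thus gained on that of BCL2 and BCL2L1 in every treated array, with a p at the smallest value this exact test can give for 3 arrays against 3.

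Of 8 BH3-only genes measured, 2 rose at 8 h and 3 at 20 h, against 5.93% and 13.1% of all genes. None of the 8 fell at either time (0 also at an unadjusted p under 0.05 in limma), against 6.28% and 17.2% of all genes. The medians of their changes were 0.054 and 0.25. Of the 8, 6 lay at or above the median level, where larger shares of genes were called. PMAIP1, which encodes NOXA, a partner of MCL1 that promotes its degradation, read 7.39, 7.31 and 7.47 in controls, 8.31, 8.35 and 8.23 at 8 h and 8.61, 8.81 and 8.55 at 20 h. It rose by 0.90 and 1.26 (SE 0.09, limma adjusted p = 0.000187 and 4.04e-06). MCL1 shifted against it by -0.15 at 8 h, by -0.72 at 20 h and by -0.57 between the treated groups, without overlap (exact p = 0.1, adjusted 0.109). The shift was largest in size from control to 20 h, though the equal p values do not rank the 3 shifts. PMAIP1 is part of the difference, so its own rise enlarges the shift. At 20 h MCL1 lay below its 8 h level, a difference that did not pass (limma adjusted p = 0.0706).

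BCL2L11, which encodes BIM, a partner of all pro-survival members, rose by 0.59 at 8 h and 1.30 at 20 h (SE 0.13, limma adjusted p = 0.0123 and 2.71e-05). Its shift relative to MCL1 depended on the group: MCL1 minus BCL2L11 differed from control by 0.16 at 8 h (exact p = 0.4) and by -0.75 at 20 h (exact p = 0.1). BBC3, which encodes PUMA, rose at 20 h by 0.89 (SE 0.09, limma adjusted p = 3.97e-05), with a difference of 0.09 at 8 h (limma adjusted p = 0.608). BID, BAD, BIK, HRK and BMF did not pass against control at either time. From 8 h to 20 h 4 of the 8 rose, BCL2L11, BBC3, PMAIP1 and BID, against 8.95% of all genes. None fell, against 13.6% of all genes. BID lay near the threshold (limma adjusted p = 0.0480).

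Among the effectors, 0 of 3 rose or fell in limma in any comparison, and 0 at an unadjusted p under 0.05. Of all genes, 12.2% were called at 8 h, 30.3% at 20 h and 22.6% from 8 h to 20 h. BAX had a difference of -0.52 at 8 h (SE 0.24, limma adjusted p = 0.221), with a control SD of 0.57 that left little room to see a change. BAK1 and BOK differed from control by -0.03 and -0.0065 at 8 h and by 0.03 and -0.06 at 20 h. Of the other genes named for BCL2, 1 of 5 rose at each time, against 5.93% and 13.1% of all genes. None fell (0 also at an unadjusted p under 0.05 in limma), against 6.28% and 17.2% of all genes. BCL2L12, BCL2L13, BCL2L14 and BCL2L15 did not pass. The gene that rose was BCLAF1, a nuclear RNA-binding protein named for its contact with BCL2 family proteins, by 0.42 and 0.38 (limma adjusted p = 0.0175 and 0.0113).

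**Figure D3:**
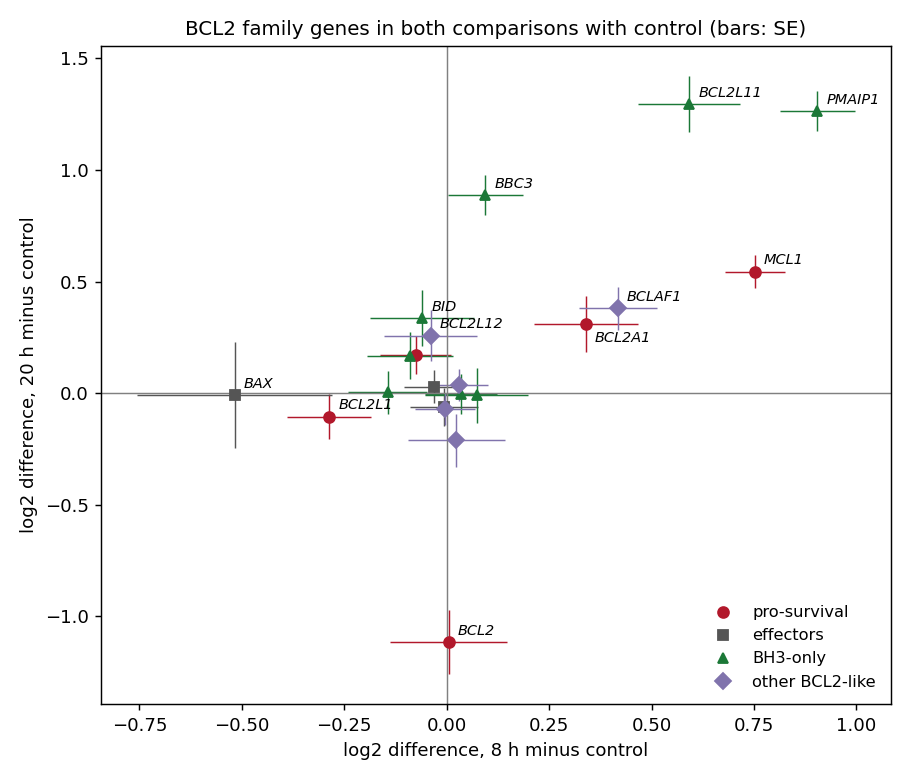
Log2 difference from control at 8 h (x axis) and at 20 h (y axis), with SE bars from limma. The 21 genes are BCL2 family genes and BCLAF1, which is named for its contact with the family. Both axes share the same controls, and genes beyond 0.25 on either axis are named. MCL1 (0.75, 0.54), PMAIP1 (0.90, 1.26) and BCL2L11 (0.59, 1.30) lie to the upper right, and BCL2 (0.0048, -1.12) lies alone at the bottom.

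MCL1 protein is turned over by ubiquitin ligases and spared by deubiquitinases, and transcripts of this machinery moved both ways. Of 12 genes, 5 rose and 1 fell at each time, with medians of 0.098 and -0.022. The shares of all genes that rose and fell were 5.93% and 6.28% at 8 h and 13.1% and 17.2% at 20 h. Of the 12, 11 lay at or above the median level, where larger shares of genes were called. FBXW7, the substrate receptor of an SCF ligase for MCL1, rose by 0.74 and 0.68 (SE 0.11, limma adjusted p = 0.00196 and 0.000926), and SKP1, the adaptor of SCF ligases, by 1.07 and 1.02. MAPK8, the kinase JNK1, rose by 1.27 and 0.47, and GSK3B, a kinase that marks MCL1 for degradation, by 0.32 and 0.41. The related GSK3A rose by 0.87 at 20 h (SE 0.20, limma adjusted p = 0.00646) and by 0.95 from 8 h to 20 h, with a difference of -0.08 from control at 8 h (limma adjusted p = 0.869).

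The deubiquitinase USP13, described to stabilise MCL1, fell at both times (limma adjusted p = 0.00149 and 6.72e-07), from 7.08 ± 0.11 in controls to 5.58 ± 0.07 at 20 h (SD, n = 3). At 8 h it fell by 0.57 and from 8 h to 20 h it fell by 0.93 (SE 0.08). It is among the genes whose 3 values at 8 h were identical as deposited (6.52), so their spread is not a measure of error. USP9X, another deubiquitinase of MCL1, rose by 0.32 at 8 h (limma adjusted p = 0.0458) and differed from control by -0.26 at 20 h (limma adjusted p = 0.0572). Between the treated groups it fell by 0.58. The ligases HUWE1, BTRC, MARCHF5 and TRIM17 and the scaffold CUL1 passed at neither time, with differences between -0.25 and 0.20.

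Of 15 measured genes for partners of BCL2 outside the family, 5 rose and 1 fell at 8 h, against 5.93% and 6.28% of all genes. At 20 h 7 rose and 2 fell, against 13.1% and 17.2%, and the medians were 0.077 and 0.17. All 15 lay at or above the median level, where larger shares of genes were called. NR4A1, a nuclear receptor that can bind BCL2 at mitochondria, rose by 1.18 and 2.63 (SE 0.10, limma adjusted p = 8.71e-05 and 1.34e-07). BAG1, an HSP70 cochaperone found through its binding to BCL2, rose by 0.67 and 1.02, and ITPR1, a calcium channel of the endoplasmic reticulum, by 0.52 and 0.72. MTCH2, a mitochondrial receptor for BID, fell at 20 h by 0.63. BECN1, an autophagy protein held by BCL2 and named here after its values were seen, fell by 0.33 at each time.

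Downstream of the membrane, 0 of 8 apoptosome and mitochondrial death genes rose at 8 h (1 at an unadjusted p under 0.05 in limma) and 2 fell, against 5.93% and 6.28% of all genes. At 20 h 2 rose and 3 fell, against 13.1% and 17.2% of all genes. APAF1, the scaffold of the apoptosome, fell at 20 h by 0.97, and AIFM1, a flavoprotein of the respiratory chain and of cell death, fell by 0.44 at 8 h and by 0.86 at 20 h. HTRA2, a mitochondrial protease, fell by 0.56 and by 0.46. CYCS, which encodes cytochrome c, rose at 20 h by 1.07, with a mean of 3.81 that lay below the median level, and ENDOG, a mitochondrial nuclease, rose by 0.25. The caspase gene CASP9, its inhibitor gene XIAP and DIABLO, which relieves that inhibition, passed at neither time.

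The list of transcription factors described at the promoters of MCL1, BCL2, BCL2L1 or BCL2A1 holds 23 genes. At 8 h 11 rose and 0 fell (13 and 0 at an unadjusted p under 0.05 in limma), against 5.93% and 6.28% of all genes. At 20 h 14 rose and 3 fell, against 13.1% and 17.2% of all genes. Of the 23, 22 lay at or above the median level, where larger shares were called. In a fit of those 11055 genes alone, 1427 rose and 1603 fell at 8 h, and 2457 rose and 3694 fell at 20 h. Medians were 0.44 and 0.75, against -0.0031 and 0.028 over all genes. ETS2 rose by 1.86 and 2.26 (SE 0.09, limma adjusted p = 6.04e-06 and 1.84e-07), MYC by 1.25 and 2.43, and the NF-kB subunits REL by 1.43 and 1.70 and RELB by 0.66 and 1.46. Those that fell at 20 h, named after their values were seen, were E2F1 (-0.73), MYB (-0.43, mean level 2.94) and SP1 (-0.43). STAT3, a known activator of MCL1 transcription and named outside the rule for lists, differed from control by 0.11 and 0.06 (limma adjusted p = 0.375 and 0.598). These are messenger RNA levels of the factors, and their activity at the pro-survival genes was not measured.

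Likeness to a called member was the root mean square difference between 2 profiles over the 9 arrays, each centred on its own mean. It was taken among 9368 genes at or above the median level, after small RNAs, unnamed loci and pseudogenes were filtered out by symbol. That filter left out every symbol ending in P and a number, and so also coding genes such as PMAIP1 and USP13. Nearest here means nearest among the genes compared. The profile nearest to MCL1 was that of VEGFA, the angiogenic growth factor, at 0.0427 log2 units, followed by HLA-DMA (0.0602), a chaperone of antigen loading, and WDR45B (0.0724), an autophagy protein. The median over all genes compared was 0.40. VEGFA rose by 0.67 at 8 h and 0.47 at 20 h. Like that of MCL1, its difference between the treated groups did not pass (-0.20, limma adjusted p = 0.0645). Nearest to BCL2 were AP3M2 (0.125), an adaptor subunit of vesicle transport, the mitotic kinase AURKB (0.136) and the pocket protein gene RB1 (0.143), against a median of 0.549. All 3 fell at 20 h, with log2 changes of -1.12, -1.21 and -1.18, and differed from control by -0.07, -0.04 and -0.06 at 8 h. The 9 points of a profile share 3 groups, so likeness mostly reflects the group means.

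**Figure D4:**
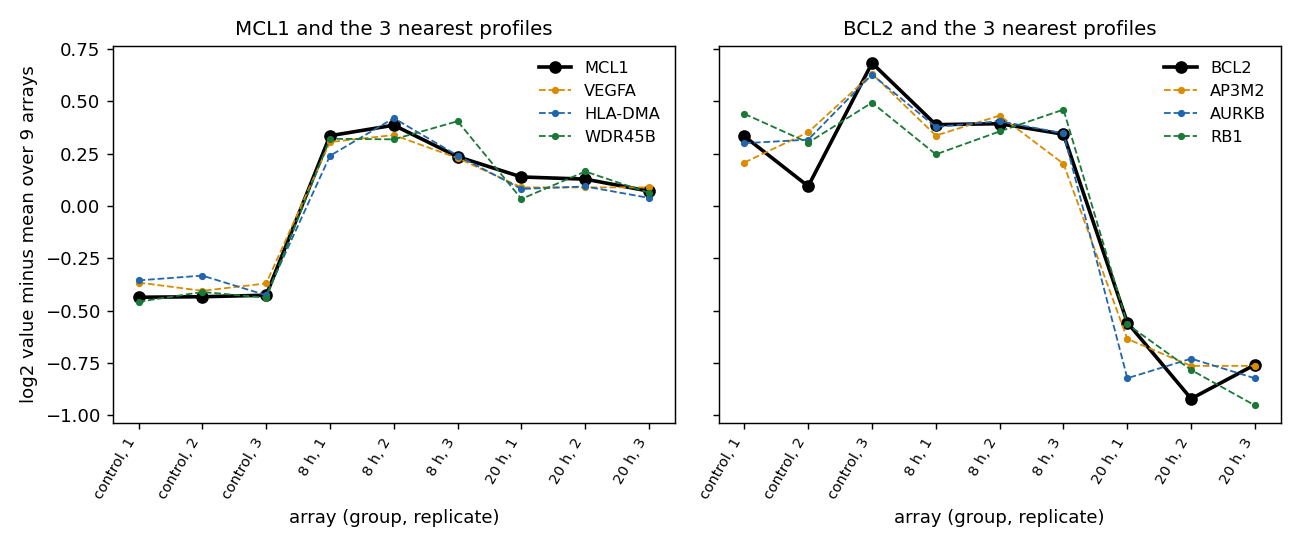
Log2 value minus the gene's mean over 9 arrays (y axis) on each array (x axis) for MCL1 and BCL2 (black) and the 3 genes with the nearest profiles (dashed). Nearest is among the 9368 genes left after a filter on symbols. The profiles step up from control to 8 h around MCL1 and step down from 8 h to 20 h around BCL2; lines join arrays only to guide the eye.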

How the data were processed

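Total RNA of 9 samples, 3 untreated and 3 in each of 2 YM-155 groups, was measured on arrays. The authors made the deposited log2 values with RMA in Affymetrix Expression Console, per the submitters' processing notes; versions and genome build are not given in the sources used here. RMA includes quantile normalization over arrays, which removes any shift shared by most probe sets, and it compresses low levels. Array medians were 3.11 to 3.20.

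Of 53617 probe sets, 23558 had 1 symbol and 2155 several; the latter and those outside the gene table were left out. Symbols followed the gene identifiers, and the brightest probe set stood for each of 22109 genes. Group means of all 9 arrays were fitted in limma 3.58.1 (R 4.3.3; 6 residual and 4.01 prior degrees of freedom). All tests are two-sided. Benjamini-Hochberg adjustment ran over all genes, and an adjusted p under 0.05 was called. Exact permutation tests used scipy 1.17.1. Arrays give no counts, and their number limits precision. The script was tested on simulated data.

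The members, gene lists, tests and alternatives were chosen with earlier results of these data known. Named were all members, up to 4 called genes per list with the largest change (lists of at most 12 measured genes could be named in full), the pairs with MCL1, BIRC5 and the 3 nearest profiles. BECN1, E2F1, MYB, SP1 and STAT3 were named outside that rule. Same-numbered arrays deviated from their group means with correlations of -0.318 to 0.111, so the numbers were not taken as pairs.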

Additional observations from a re-analysis of the deposited data

Results flagged for a closer look

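BCL2 differed between the treated groups: from 8 h to 20 h it fell by 1.12 on the log2 scale (SE 0.14, limma adjusted p = 0.000388), with every 20 h array (4.07 to 4.43) below every 8 h array (5.33 to 5.38). Because both groups are set against the same controls, this test is also the test of the difference between the 8 h and the 20 h change. Groups of 3 arrays are too small for a test of single outlying arrays.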

How the results depend on the processing

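Each of the 15 differences of the members was refitted under 20 alternatives, 9 of which left out an array (19 for BCL2A1 and BCL2L10, which the filter on low levels removes). The calls of MCL1 against control held in all 20, with log2 changes of 0.72 to 0.79 at 8 h and 0.47 to 0.57 at 20 h. The calls of BCL2 held in all 20 too, at -1.25 to -0.96 for 20 h against control and -1.22 to -1.03 for 20 h against 8 h. The count of members called from 8 h to 20 h went from 1 to 2 with genes above the median level only, repeated quantile normalization, centred arrays, array weights and a trended variance, through MCL1 (lower). It was also 2 with only the groups compared, through BCL2L10 (0.25, limma adjusted p = 0.0486). The 8 h difference of BCL2 ranged from -0.13 without control replicate 2 to 0.16 without control replicate 3, never called. With the replicate block, 2204 genes were called at 8 h, and MCL1 changed by 0.75 (adjusted p = 0.00119) and 0.54 (0.00128) and BCL2 at 20 h by -1.12 (0.000430); the block changed no call of a member. Over all 53617 probe sets, 4253, 10929 and 8002 were called in the 3 comparisons, against 2698, 6704 and 4991 of the 22109 genes. The counts were thus larger and the shares smaller. At 8 h 2529 of the probe sets rose and 1724 fell, against 1310 and 1388 of the genes. BCL2A1 and BCL2L10 lay too near the level of unused genes for a lack of a call to carry weight.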
